A study of Mus musculus with 18 samples.

Results

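The choroid plexus of MRL/+ mice, the control strain of a lupus study, was described at rest and at 2 ages. The 6 MRL/+ libraries were taken by their labels from the 18 libraries of the series: 3 are from mice of 12 weeks and 3 from mice of 16 weeks. MRL/+ mice share the MRL background with MRL/lpr mice but keep an intact Fas gene, where MRL/lpr mice carry the lpr mutation of Fas. No treatment is named for any group, and the labels do not say which ventricle was dissected or whether a library holds 1 animal or a pool. The remaining 12 libraries, 6 of 12 weeks and 6 of 16 weeks, are MRL/lpr choroid plexus and were used only to ask whether the age difference was another one in that strain.

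The choroid plexus is a fold of tissue that hangs in the brain ventricles. Its single-layered epithelium makes cerebrospinal fluid by moving sodium, chloride, bicarbonate and water from blood to ventricle, and it releases carrier proteins and growth factors into that fluid. Tight junctions between the epithelial cells form the barrier between blood and cerebrospinal fluid, while the capillaries beneath them are fenestrated and leaky. Stromal fibroblasts and macrophages lie between both layers.

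Each library held between 11164284 and 14602253 counts assigned to genes. Of 50584 genes in the table, 27245 had at least 1 count in an MRL/+ library, and 14201 had a mean level of 1 or more. The level used here is the count per kilobase of the deposited gene length, scaled to 1000000 over all genes of a library, so that genes can be compared with each other. CPM is the count per 1000000 after TMM scaling and is used to compare libraries. Xist was present in all 6 libraries, at 523 to 926 CPM, and the Y-linked genes Ddx3y, Eif2s3y, Kdm5d and Uty were at 0 in each. Nothing in the labels says that the libraries come from separate animals, so each p-value may reflect technical as well as biological spread.

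Both libraries numbered 1 stood apart. Replicate 1 of 12 weeks held RNA of cerebellum: 203 genes were at least 4-fold higher there than in each of the other 5 libraries, among them 11 of 12 cerebellum genes on the list used. Gabra6, the cerebellar granule cell subunit of the GABA receptor, had 865 counts in that library and between 16 and 56 in the others. The summed CPM of the 12 cerebellum genes was 527 in replicate 1 of 12 weeks and 18.9 to 60.3 in the other 5 libraries. Replicate 1 of 16 weeks held RNA of skeletal muscle: 31 genes were at least 4-fold higher there, 16 of them on the list of 20 muscle genes. Acta1, skeletal muscle actin, had 909 counts in that library and 1 or 2 in each of the others, and Tnni2, a fast-muscle troponin, had 1093 counts against 1 to 5. The summed muscle CPM was 834 against 11.7 to 48.6, although Tnnc2, the fast-muscle troponin C gene, was listed at 0 in every library. Prl and Gh, the prolactin and growth hormone genes of the pituitary, were highest in both libraries numbered 3: Prl was at 23.9 CPM in replicate 3 of 12 weeks and 16.1 CPM in replicate 3 of 16 weeks, and between 2.34 and 10.3 CPM elsewhere.

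The resting transcriptome was dominated by 1 gene. Ttr, which encodes transthyretin, the thyroid hormone and retinol carrier of cerebrospinal fluid, had a level of 317894 ± 16533 (SD, n = 6), which is 31.8% of the total. In the 12-week libraries its level was 313106, 308223 and 324399, and in the 16-week libraries 308867, 304223 and 348545. By this level the groups overlap, and the highest and lowest libraries are both of 16 weeks. By CPM they were separate, at 124583, 163986 and 167069 at 12 weeks and 194696, 181994 and 218745 at 16 weeks. As a share of plain counts, without length scaling, Ttr took 14.96% to 17.11% of a library at 12 weeks and 17.33% to 19.96% at 16 weeks. The 5 highest genes together held 46.8% of the total level, the 10 highest 51.8%, the 100 highest 62.8% and the 500 highest 74.3%.

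**Figure D1:**
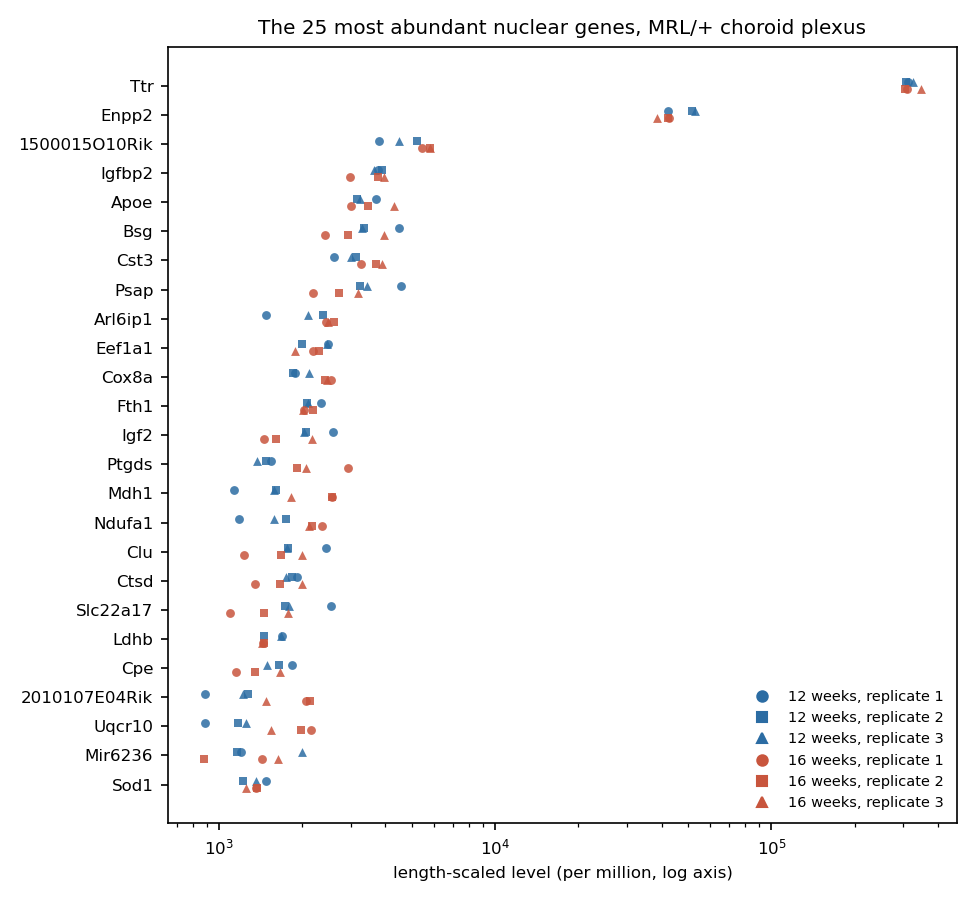
Level of the 25 most abundant nuclear genes that are not ribosomal protein genes in each MRL/+ library (x axis: count per kilobase scaled to 1000000, log axis; blue points are 12 weeks, red points 16 weeks, and the marker shape is the replicate). Ttr at 317894 and Enpp2 at 45004 lie far to the right of all other genes, of which 1500015O10Rik at 5075 is the highest.

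Enpp2, the autotaxin gene, whose secreted enzyme makes lysophosphatidic acid, was the second nuclear gene at 45004 ± 5753. Its 12-week levels were 42206, 51428 and 52910 and its 16-week levels 42615, 42218 and 38646, so the ranges overlap. After it came 1500015O10Rik, an older name of Ecrg4, at 5075 ± 795, a gene for a secreted peptide precursor. Next were Igfbp2, an insulin-like growth factor binding protein, at 3661 ± 346, and Apoe, apolipoprotein E, at 3483 ± 471. Bsg, the cell surface chaperone of monocarboxylate transporters, followed at 3400 ± 739, then Cst3, the protease inhibitor cystatin C, at 3266 ± 471, and Psap, the lysosomal prosaposin, at 3217 ± 787. Igf2, the growth factor that the choroid plexus releases, stood at 1985 ± 408, Ptgds, the prostaglandin D synthase that is also made by meninges, at 1880 ± 578, and Clu, clusterin, at 1810 ± 396. Arl6ip1, Eef1a1, Cox8a, Fth1, Mdh1, Ndufa1, Ctsd, Slc22a17, Ldhb, Cpe, 2010107E04Rik (now Atp5mpl), Uqcr10, the microRNA model Mir6236 and Sod1 completed the 25, with levels between 1341 and 2241. With ribosomal protein genes counted in, the 25 highest nuclear genes hold Rplp1 in place of Sod1. Of that set, 17 were also among the 25 highest nuclear genes by plain counts. All 25 of 25 stayed when both libraries numbered 1 were left out.

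The list of 28 secreted proteins held 38.4% of the total level, nearly all of it Ttr and Enpp2. Below the genes named above came App, the amyloid precursor protein, at 1090 ± 323, Kl, the klotho gene, at 703 ± 153, and Sostdc1, a secreted inhibitor of Wnt and BMP signals, at 685 ± 143. Trf, transferrin, reached only 25.6, Cp, ceruloplasmin, 7.82, and Lcn2, the acute phase lipocalin, 0.202. Levels within this list ranged from 0.202 to 317894.

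Genes for the making of cerebrospinal fluid were abundant. Kcne2, an accessory potassium channel subunit, was the highest of 28 at 1117 ± 141, and Kcnj13, an inward rectifier potassium channel, stood at 680 ± 93.6. The sodium pump in the ventricular membrane was represented by the beta subunit gene Atp1b1 at 776 ± 186 and the regulator Fxyd1 at 626 ± 68.6. Clic6, a chloride intracellular channel gene, stood at 916 ± 180. For bicarbonate supply, Car2, the cytosolic carbonic anhydrase, stood at 503 ± 33.4, Car12 at 339 ± 102 and Slc4a10, a sodium bicarbonate transporter, at 485 ± 73.9. Slc12a2, the sodium potassium chloride cotransporter NKCC1, had a level of 286 ± 55.3, and Aqp1, the water channel, 391 ± 99.9. Aqp4, the water channel of astrocytes, had a level of 12.1 ± 12.8. Kcna1 at 1.05 and Kcna3 at 0.480 were the lowest of the list.

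Among the 34 transporters chosen for the blood side and fluid side, Slc22a17, a receptor for lipocalins, led with 1730 ± 480. Slco1c1, which carries thyroxine, followed at 442 ± 36.0, Slc39a12, a zinc importer, at 362 ± 48.3, and Slc31a1, the copper importer, at 330 ± 70.7. Abca4 at 70.8 was the highest ABC transporter of the list, and Abcb1a, the drug pump of brain capillaries, stood at 1.47. Among tight junction genes, Cldn2, a pore-forming claudin of leaky epithelia, was highest at 219 ± 53.2, followed by Cldn1 at 129 ± 26.4, F11r, a junctional adhesion molecule, at 78.7 ± 26.02, and Ocln, occludin, at 73.3 ± 7.43. Cldn5, the claudin of brain capillaries, had a level of 3.32 ± 2.95, highest in the library that also held cerebellum RNA.

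Markers of choroid plexus epithelium matched the labelled tissue. Folr1, the folate receptor that moves folate into the fluid, had a level of 1035 ± 150, Wfdc2 435 ± 77.1, Krt18 377 ± 42.2, Calml4 355 ± 64.1, Htr2c, the serotonin receptor, 209 ± 30.8, and Otx2, the homeobox factor of this epithelium, 205 ± 29.1. Lrp2, megalin, at 0.376 and Tfr2 at 0.154 were close to absent. For motile cilia, Rsph1 of the radial spoke stood at 275 ± 25.7, Dynlrb2 at 214 ± 62.8, and Foxj1, the factor that drives motile cilia, at 147 ± 27.6, whereas Dnah5, an outer arm dynein, was at 0.183 and Mcidas at 0.0115. Pcna, the replication clamp, was the highest of 23 cell cycle genes at 41.1, and Mki67, a marker of dividing cells, had 0.182.

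Igf2 was the highest gene of the stroma list, and vascular genes were low. Col9a3 at 667 ± 92.6 and Col8a1 at 251 ± 24.1 were its highest collagen genes, and Dcn, decorin of fibroblasts, had 82.0 ± 13.3. The endothelial genes held 0.00650% of the total level, led by Igfbp3 at 10.3 and Plvap, the protein of fenestral diaphragms, at 9.82. In bulk tissue, fewer cells of a type and less RNA per cell cannot be told apart. Macrophage genes held 0.0283%, led by Lyz2, lysozyme, at 75.4 ± 20.3, and included C1qa, a complement component, at 37.8 ± 4.24. Lymphocyte genes were near 0: Cd3e had 2 counts over all 6 libraries, Cd3d 2 and Ms4a1, the CD20 gene, 3. Igkc, the immunoglobulin kappa constant region, reached 25.1 ± 10.5 and Ighm, the mu heavy chain, 2.86 ± 0.587. Of antigen presentation genes, B2m stood at 601 ± 50.8, H2-K1 at 79.2 ± 8.01, and the class II gene H2-Aa at 13.5 ± 5.06. Among interferon-stimulated genes Ifi27 at 610 ± 114 and Bst2 at 298 ± 38.1 were high at rest, while Mx1 was at 0.0530 and Oas2 at 0.157.

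By family, the 13 protein genes of the mitochondrial genome held 15.1% ± 2.61 (SD, n = 6) of the level. This is a lower bound: mt-Co1 stood at 47020 and mt-Cytb at 35522, yet mt-Co2, mt-Co3, mt-Atp6, mt-Atp8, mt-Nd3 and mt-Nd4l were listed at 0 or 1 count. The 102 cytosolic ribosomal protein genes, led by Rplp1 at 2092 ± 502, held 2.60% ± 0.498. Nuclear genes of respiratory complex I held 1.24% ± 0.223 and the 390 solute carriers 1.09% ± 0.191. Cytochrome c oxidase subunits held 0.884%, ATP synthase subunits 0.585%, the sodium pump genes 0.246% and the V-type ATPase genes 0.286%. Potassium channels held 0.221%, of which Kcne2 and Kcnj13 gave most, since the fourth channel gene, Kcnh2, was at 48.6. Histocompatibility genes held 0.0190% and aquaporins 0.0406%, almost all Aqp1.

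The age comparison asked which genes differed between 12 and 16 weeks in the control strain. By the main test, edgeR's quasi-likelihood test with Benjamini-Hochberg adjustment, 0 of 14528 genes passed an adjusted p of 0.05 in either direction (0% called), and the smallest adjusted p was 0.116. At an unadjusted p under 0.05 there were 1993 genes higher at 16 weeks (13.7%) and 1380 lower (9.50%). Other tools gave other counts from the same counts. DESeq2 called 885 higher (6.09%) and 404 lower (2.78%). It gave no adjusted p for 5643 of the 14528 genes, and these stay in its percentages as not called. Its shares of all genes, here and below, are therefore lower than among genes with an adjusted p. Limma's voom with a weight for each library called 1142 higher (7.86%) and 517 lower (3.56%). Both called 1136 genes in common, which is 88.1% of the DESeq2 calls and 68.5% of the voom calls, in 1136 of 1136 cases with the same sign. Voom gave replicate 1 of 12 weeks a weight of 0.235 and replicate 3 of 16 weeks 0.532. DESeq2 without the libraries numbered 1 called 267 higher and 50 lower, and weighted voom without them called 0. All calls below are therefore given by tool, and a gene is described by its values, since none passed the main test.

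The age difference followed gene length. In the 1452 genes with the shortest deposited length, a median of 974 bases, the median log2 fold change was 0.43 and 82.1% of genes were higher at 16 weeks. In the 1453 with the longest, a median of 11949 bases, it was -0.32 and 17.6% were higher. Across 14528 genes, which share the same 6 libraries, Spearman's rho between fold change and length was -0.447, and -0.414 without the libraries numbered 1. In the 12 MRL/lpr libraries the same correlation had the other sign, 0.201 over 16598 genes. A fit with the trend against length taken out of each library called 0 genes, with a correlation of -0.0380 left. The median over all genes was -0.03 in the main test and -0.04 in that fit. Scaling by total counts in place of TMM moved it to -0.25, and list values are to be read against that shift. The cause of this trend was not tested. Length-adjusted values are given beside the list medians and for many of the genes below.

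**Figure D2:**
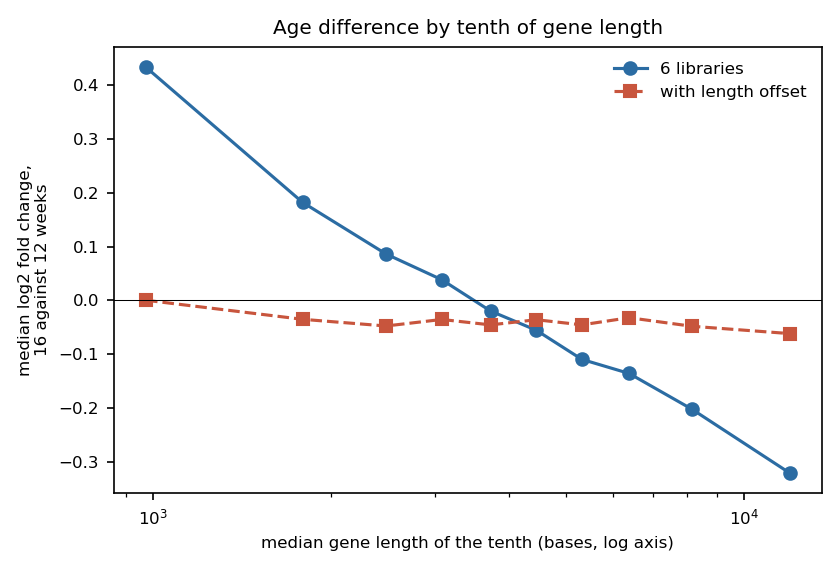
Median log2 fold change, 16 against 12 weeks, in 10 bins of genes by deposited length (x axis: median length in bases, log axis; blue circles are the 6-library fit and red squares the fit with a length offset). The blue line runs from 0.43 in the shortest bin to -0.32 in the longest, while the red line stays between -0.06 and 0.00.

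Of 14528 genes, 2667 (18.4%) had all 3 libraries of 16 weeks above all 3 of 12 weeks, and 2022 (13.9%) had all 3 below, together 4689 (32.3%). The fitted log2 fold change was above 0 in 6825 genes (47.0%). The 6 with the smallest p in each direction all had groups that do not overlap and shared the same adjusted p of 0.116 by edgeR's quasi-likelihood test.

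On the higher side was Scx (GRCm38 chr15:76457438-76459468), the tendon and connective tissue factor scleraxis. Its CPM was 6.15, 6.99 and 6.09 at 12 weeks and 14.1, 14.02 and 15.7 at 16 weeks, a log2 fold change of 1.19 ± 0.14 (SE). All 3 libraries of 16 weeks lay above all 3 of 12 weeks. Manf (chr9:106838312-106891979), a chaperone-like protein secreted from the endoplasmic reticulum under stress, was at 110, 122 and 123 CPM and then at 220, 226 and 224 CPM. Its log2 fold change was 0.92 ± 0.11, and 0.88 with the length offset. Sdf2l1 (chr16:17130138-17132383), another resident of the endoplasmic reticulum, was at 40.5, 41.7 and 42.9 CPM and then at 69.5, 68.5 and 84.6 CPM.

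Sec61b (chr4:47474658-47483242) encodes a subunit of the channel through which new proteins enter the endoplasmic reticulum. Its CPM was 20.03, 22.9 and 20.04 at 12 weeks and 34.4, 34.3 and 40.5 at 16 weeks. Rpl26 (chr11:68901583-68906989), a ribosomal protein gene, was at 9.19, 11.8 and 9.84 CPM and then at 25.4, 24.0 and 18.7 CPM. Naa38 (chr11:69395487-69396680), of the N-terminal acetyltransferase complex C, was at 20.4, 27.4 and 27.6 CPM and then at 51.0, 47.4 and 46.9 CPM. The groups are separate for all 6 genes. The length-adjusted log2 fold changes of Sec61b, Rpl26 and Naa38 were 0.47, 0.85 and 0.51.

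On the lower side, Herc3 (chr6:58831465-58920398), a ubiquitin ligase, was at 62.6, 58.1 and 59.8 CPM at 12 weeks and 31.7, 35.6 and 35.8 CPM at 16 weeks. The log2 fold change was -0.81 ± 0.10. Dnah6 (chr6:73017606-73221651), an inner arm dynein of motile cilia, was at 113, 103 and 110 CPM and then at 62.3, 68.7 and 66.6 CPM. Ttc21a (chr9:119937606-119967793), a homologue of a ciliary transport protein, was at 28.9, 28.6 and 27.4 CPM and then at 15.6, 16.9 and 16.8 CPM.

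Cirbp (chr10:80165985-80172786), the cold-inducible RNA-binding protein, was at 36.4, 39.0 and 31.9 CPM and then at 21.5, 21.2 and 20.7 CPM. With the length offset its log2 fold change was -0.88, larger than the -0.76 without. Adamts1 (chr16:85793827-85803113), a secreted metalloprotease, was at 128, 113 and 118 CPM and then at 63.3, 70.7 and 76.1 CPM. DESeq2 without the libraries numbered 1 called 8 of these 11 genes and gave no adjusted p for Scx, Rpl26 and Ttc21a. Over all genes that fit called 317 of 14480. The 11 genes were picked by their p over libraries that the fit reuses, so its calls are no separate support for them. In each of the 5 genes with lower values the highest 16-week library stayed below the lowest 12-week library. Of these 5, Cirbp is the shortest, at 2604 bases. Adamts1 has 5302 bases, Ttc21a 5388, Herc3 9127 and Dnah6 13247, and their length-adjusted values are not given here. Without the offset, the median log2 fold change was -0.11 for genes of 4851 to 5817 bases. It was -0.20 for genes of 7138 to 9472 bases and -0.32 in the longest bin.

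**Figure D3:**
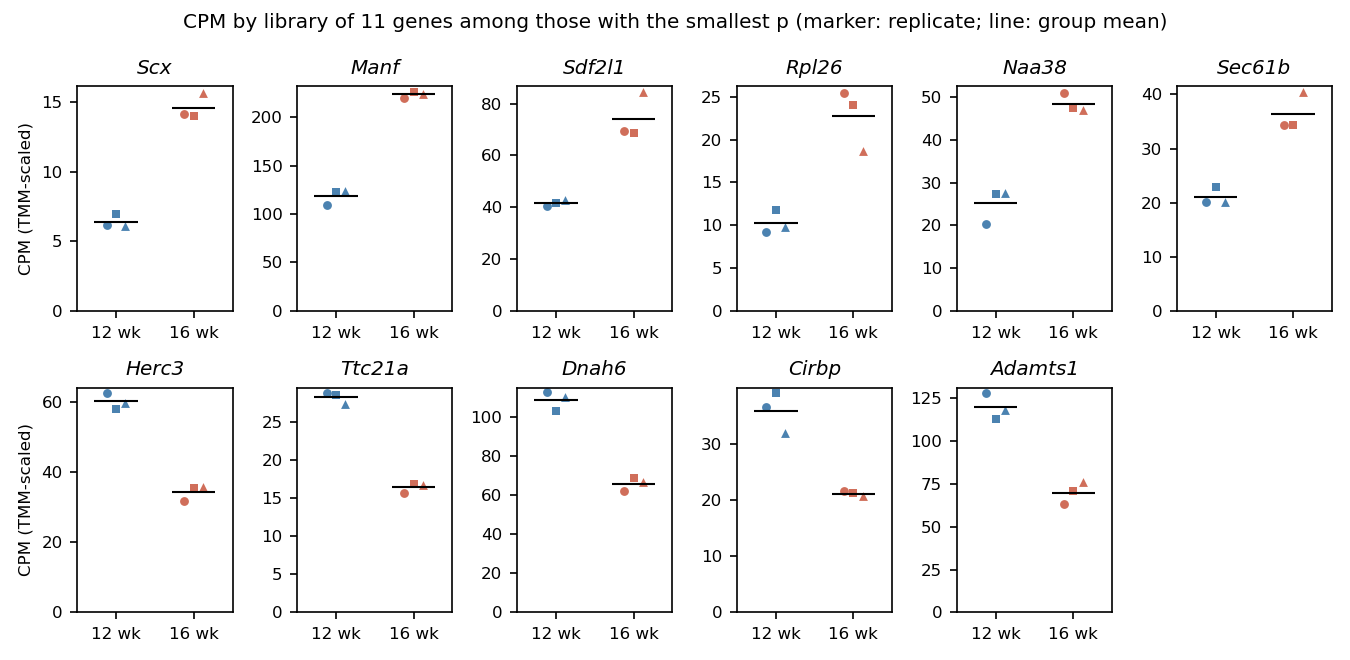
CPM of 11 genes among those with the smallest p, 6 with higher and 5 with lower values at 16 weeks, in each MRL/+ library (y axis from 0; blue is 12 weeks, red 16 weeks; circles, squares and triangles are replicates 1, 2 and 3; the line is the group mean). Groups do not overlap in any panel, as in Manf at 110 to 123 against 220 to 226 CPM.

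The unfolded protein response list held 23 genes, whose proteins fold, modify or clear client proteins of the endoplasmic reticulum or switch on that programme. By edgeR 0 of 23 passed in either direction. By DESeq2 8 were higher and 0 lower, where 6.09% of all genes were called higher. Groups did not overlap in 8, all higher, where 18.4% of all genes had this order. The median log2 fold change was 0.30, against -0.03 over all genes. It was 0.41 without the libraries numbered 1, 0.14 without replicate 3 of 16 weeks and 0.26 with the length offset.

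Hspa5, the BiP chaperone that holds the stress sensors inactive, was at 1244, 1328 and 1407 CPM at 12 weeks and at 2042, 2033 and 2210 CPM at 16 weeks. Xbp1, the transcription factor activated by splicing under stress, was at 119, 110 and 118 CPM and then at 170, 181 and 227 CPM. Hsp90b1, the Hsp90 chaperone of the same compartment, was at 777, 1233 and 1082 CPM and then at 1885, 1622 and 1591 CPM. Groups were separate for these 3 genes, with log2 fold changes of 0.66 ± 0.15, 0.74 ± 0.14 and 0.72 ± 0.21. The disulfide isomerase gene Pdia6 was at 372, 577 and 564 CPM and then at 869, 825 and 819 CPM, and Creld2, another chaperone-type gene, at 36.9, 28.8 and 30.7 CPM and then at 42.2, 51.6 and 59.0 CPM. Both were picked after their values were seen, from the genes whose promoters carry the motif described next. Calr, whose promoter carries it too, was at 650, 498 and 479 CPM and then at 602, 631 and 840 CPM, with overlapping groups. Ddit3 and Trib3, targets of the PERK branch, had log2 fold changes of 0.18 ± 0.20 and -0.59 ± 0.39, with overlapping groups, and Pdia4 had 0.01 ± 0.13.

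Promoters of many such chaperone genes carry an endoplasmic reticulum stress element, bound by NF-Y together with ATF6. The letters searched were CCAAT, 9 bases of any kind, then CCACG, on both strands, in the 250 bases before each RefSeq start (GRCm38.p6). Of 32851 promoter windows, 37 held it (0.113%). Of the 23 genes, 21 had a promoter in the table (Manf and Hyou1 did not), and 7 held the element: Hspa5, Hsp90b1, Calr, Canx, Pdia6, Dnajc3 and Creld2. It was not in the windows of Sdf2l1 and Xbp1. Of the 7, Hspa5, Hsp90b1, Pdia6 and Creld2 had groups that do not overlap and were called higher by DESeq2, while Calr, Canx and Dnajc3 had overlapping groups. Over the whole list, 8 of 23 had separate groups, all higher, and DESeq2 called 8 higher, where all genes give 18.4% and 6.09%. Whether the element goes with the age difference was not tested. A match describes the letters of the window and nothing more. Promoters of 3 of these genes are shown, 5′ to 3′ on the strand of the gene and ending at the base before the start, to let the position and orientation of the element be read beside the values; capitals mark the element.
Hspa5 (chr2:34771840-34772089, plus strand): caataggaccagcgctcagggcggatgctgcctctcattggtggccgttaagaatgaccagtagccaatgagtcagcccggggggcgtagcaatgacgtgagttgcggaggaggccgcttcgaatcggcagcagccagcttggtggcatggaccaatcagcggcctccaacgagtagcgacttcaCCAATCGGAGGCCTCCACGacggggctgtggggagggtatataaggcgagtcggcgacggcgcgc
Pdia6 (chr12:17266339-17266588, plus strand): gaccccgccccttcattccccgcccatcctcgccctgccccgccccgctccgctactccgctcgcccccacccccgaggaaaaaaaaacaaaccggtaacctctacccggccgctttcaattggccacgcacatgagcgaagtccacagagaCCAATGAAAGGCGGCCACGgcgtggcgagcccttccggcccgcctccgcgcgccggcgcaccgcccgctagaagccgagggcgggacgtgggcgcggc
Creld2 (chr15:88819396-88819645, plus strand): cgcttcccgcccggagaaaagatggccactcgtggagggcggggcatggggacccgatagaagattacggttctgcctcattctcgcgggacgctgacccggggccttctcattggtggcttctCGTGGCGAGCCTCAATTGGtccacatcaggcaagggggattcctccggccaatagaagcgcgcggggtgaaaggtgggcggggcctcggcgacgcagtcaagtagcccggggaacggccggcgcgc
The element begins 65 bases before the start in Hspa5 and 98 in Pdia6, in the forward direction, and 126 bases before it in Creld2, in the reverse direction.

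The heat shock list holds chaperones of the cytosol, mitochondria and endoplasmic reticulum. Of 20 genes, by edgeR 0 passed, 9 were higher by DESeq2 (6.09% of all genes) and 13 had non-overlapping groups, all higher (18.4% of all genes). The median log2 fold change was 0.25, and 0.28 both without the libraries numbered 1 and with the length offset. Hsp90aa1, the inducible cytosolic Hsp90, was at 622, 1057 and 1009 CPM and then at 2317, 1937 and 1573 CPM, a log2 fold change of 1.12 ± 0.25. Hspa8, the constitutive Hsp70, was at 614, 674 and 743 CPM and then at 920, 883 and 894 CPM. Chordc1, a partner of Hsp90, was at 67.8, 81.7 and 90.5 CPM and then at 154, 135 and 124 CPM, and Hspe1, the mitochondrial co-chaperonin, at 15.4, 25.2 and 22.9 CPM and then at 49.2, 51.5 and 33.1 CPM. The strongly inducible Hspa1a and Hspa1b were low and overlapped, at 2.01 to 4.20 and 2.04 to 7.31 CPM. Hspa5 and Hsp90b1 stand on this list too.

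Genes of the circadian clock moved in both directions by their values. Clock and Arntl proteins switch on the Per and Cry genes, whose proteins repress them, and the D-box factors Dbp and Tef are outputs. Of 19 genes, by edgeR 0 passed. By DESeq2 6 were lower and 1 higher, against 2.78% and 6.09% of all genes. Groups did not overlap in 8 genes with lower values at 16 weeks, where all genes give 13.9%, and in 3 with higher values, which is near the 18.4% of all genes. The median log2 fold change was -0.29, -0.40 without the libraries numbered 1 and -0.21 with the length offset.

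Per1 was at 42.1, 32.5 and 38.8 CPM at 12 weeks and at 19.7, 24.0 and 19.1 CPM at 16 weeks. Per3 was at 39.2, 28.5 and 34.9 CPM and then at 21.3, 20.3 and 18.2 CPM, and Tef was at 107, 104 and 125 CPM and then at 77.4, 78.4 and 68.4 CPM. Dbp was at 18.8, 24.8 and 25.03 CPM and then at 15.7, 16.6 and 15.2 CPM. In all 4 genes the 16-week libraries lay below the 12-week libraries, closest for Dbp. Nr1d1, the repressor Rev-erb alpha, was lower as well, with a log2 fold change of -0.86 ± 0.25, whereas Nfil3, which opposes Dbp at the same sites, was at 13.3, 9.18 and 10.1 CPM and then at 18.1, 14.9 and 16.1 CPM. Nfil3 was named after its values were seen, as the only gene of the list that DESeq2 called higher.

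The E-box CACGTG, a palindrome bound by Clock and Arntl, was in 6.02% of all 32851 windows. Among the 16 clock genes with a promoter in the table, 5 held it: Per1, Cry1, Tef, Bhlhe41 and Ciart. The Per1 window is shown because Per1 had the smallest p of the list, with the E-box in capitals.
Per1 (chr11:69098699-69098948, plus strand): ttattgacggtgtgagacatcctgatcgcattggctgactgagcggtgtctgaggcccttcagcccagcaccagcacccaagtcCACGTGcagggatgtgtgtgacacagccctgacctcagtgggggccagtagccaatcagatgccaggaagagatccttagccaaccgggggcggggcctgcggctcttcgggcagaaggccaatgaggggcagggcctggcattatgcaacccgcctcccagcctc
The E-box begins 166 bases before this start; the other Per1 start in the table held none.

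Meningeal marker genes were higher at 16 weeks in all but 2 of 11. Zic1, the second highest of the list by level, went the other way. It was at 159, 91.3 and 77.4 CPM at 12 weeks and at 76.7, 75.5 and 78.4 CPM at 16 weeks, with overlapping groups. By edgeR 0 passed and by DESeq2 2 were higher, Nov and Ptgds, where 6.09% of all genes were called higher. Of the 11, 7 had groups that do not overlap, all higher, where all genes give 18.4%. The median log2 fold change was 1.32, 1.05 without the libraries numbered 1 and 1.28 with the length offset. Nov (Ccn3), a matricellular protein, was at 4.99, 3.35 and 6.24 CPM and then at 27.7, 20.1 and 12.6 CPM, a log2 fold change of 2.05 ± 0.34. Ptgds was at 830, 1062 and 950 CPM and then at 2495, 1543 and 1752 CPM. Slc6a13, a GABA transporter of leptomeninges, was at 2.01, 2.40 and 2.57 CPM and then at 21.6, 8.18 and 3.45 CPM, and Aldh1a2, the retinoic acid enzyme, at 4.93, 4.08 and 4.33 CPM and then at 21.4, 12.9 and 5.70 CPM. Replicate 1 of 16 weeks, the library with muscle RNA, was the highest of the 6 for Nov, Ptgds, Slc6a13 and Aldh1a2, and the part of meningeal tissue in these values was not tested. The summed CPM of the list was 1028, 1185 and 1060 at 12 weeks and 2689, 1699 and 1877 at 16 weeks. Most of each sum was Ptgds, which is also on the secreted protein list. The stroma list of 31 genes, which also holds Slc6a13 and Aldh1a2, had a median of 0.09, 0.10 with the length offset, -0.13 with scaling by total counts and -0.0058 without replicate 1 of 16 weeks. By edgeR 0 passed, and 18 genes had a log2 fold change above 0. Groups did not overlap in 3 with higher and 4 with lower values, neither count above the 18.4% and 13.9% of all genes. Among the lower ones, Col14a1, a fibrillar-associated collagen, was at 17.8, 18.5 and 15.2 CPM and then at 10.4, 10.5 and 11.7 CPM, and Rgs5 of pericytes at 61.9, 44.5 and 62.7 CPM and then at 42.8, 36.7 and 39.6 CPM.

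Among epithelial lists by edgeR 0 genes passed. The 27 tested genes of cerebrospinal fluid production had a median log2 fold change of -0.11, and -0.04 with the length offset. It was -0.0061 without the libraries numbered 1 and -0.25 without replicate 3 of 16 weeks. Groups did not overlap in 4 of the 27 with higher and 1 with lower values, neither count above the 18.4% and 13.9% of all genes. Of the 4, Kcne2 was at 534, 882 and 715 CPM and then at 1083, 1090 and 1118 CPM. Fxyd1 was at 392, 589 and 540 CPM and then at 665, 785 and 770 CPM. Car3, highest of the list at 3.46, rested on 1 library: it was at 43.1 CPM in replicate 1 of 16 weeks, with the muscle RNA, and between 0.954 and 1.79 CPM elsewhere. Clic6 had a log2 fold change of -0.14 ± 0.17, with overlapping groups.

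Of 27 secreted protein genes tested, 4 were higher by DESeq2, where 6.09% of all genes were called higher. DESeq2 gave an adjusted p for 26 of the 27, a larger part than over all genes. Separate groups, all higher, were found in 6, which is near the 18.4% of all genes. The median was 0.07 and 0.06 with the length offset. It was 0.22 without the libraries numbered 1, and turned to -0.07 without replicate 3 of 16 weeks and to -0.15 with scaling by total counts. Cst3 was at 1080, 1732 and 1602 CPM and then at 2127, 2300 and 2541 CPM. Ttr had a log2 fold change of 0.39 ± 0.25 by CPM, with separate groups, and 0.06 with the length offset. That of Enpp2 was 0.10 ± 0.26, which turned to -0.13 without the libraries numbered 1.

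Receptor and identity genes had a median of 0.04, also with the length offset, which turned to -0.03 without replicate 3 of 16 weeks and to -0.17 with scaling by total counts. Steap1, a metalloreductase, was at 106, 186 and 168 CPM and then at 225, 229 and 245 CPM, and Calml4 at 308, 526 and 539 CPM and then at 807, 760 and 626 CPM. Lrp1, the large endocytic receptor for Apoe, was at 534, 490 and 546 CPM and then at 294, 400 and 299 CPM. The 34 transporters had a median of -0.13, also with the length offset, -0.02 without the libraries numbered 1 and -0.29 without replicate 3 of 16 weeks. The 20 tight junction genes had -0.06, -0.14 with the length offset, 0.05 without the libraries numbered 1 and -0.28 without replicate 3 of 16 weeks. Abca4 was at 417, 425 and 432 CPM and then at 244, 335 and 350 CPM, and Dsp, desmoplakin, at 79.6, 74.5 and 91.1 CPM and then at 46.3, 55.9 and 58.8 CPM. Tjp1, the scaffold ZO-1, was at 51.2, 46.0 and 52.9 CPM and then at 43.6, 34.9 and 33.2 CPM. Lrp1, Abca4, Dsp and Tjp1 are long genes, and their length-adjusted log2 fold changes were -0.33, -0.21, -0.42 and -0.28, against -0.66, -0.46, -0.61 and -0.43 without the offset.

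Cilia genes gave values in both directions. Of 28 tested, by edgeR 0 passed. By DESeq2 2 were higher and 3 lower, against 6.09% and 2.78% of all genes. Groups did not overlap in 4 with higher and 6 with lower values, where all genes give 18.4% and 13.9%. The median was -0.14, -0.18 with the length offset, -0.21 without the libraries numbered 1 and -0.07 without replicate 2 of 12 weeks. Dnah11, an outer arm dynein, was at 47.8, 32.6 and 38.9 CPM and then at 21.0, 21.6 and 22.0 CPM. Hydin, of the central pair, was at 11.4, 14.4 and 12.1 CPM and then at 4.60, 7.997 and 5.70 CPM. Dynlrb2, a small dynein light chain, was at 23.9, 46.7 and 48.7 CPM and then at 78.7, 82.0 and 50.6 CPM. With the length offset the log2 fold changes of Dnah11 and Hydin were -0.59 and -0.73, against -0.89 and -1.05 without, and that of Dynlrb2 was 0.26 against 0.82.

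Cholesterol synthesis genes had a median of -0.20 over 22 tested, -0.22 with the length offset, -0.06 without the libraries numbered 1 and -0.11 without replicate 1 of 16 weeks alone. By edgeR 0 passed, and by DESeq2 3 were lower and 1 higher, against 2.78% and 6.09% of all genes. Pmvk, phosphomevalonate kinase, had higher values at 16 weeks, at 27.3, 29.9 and 34.8 CPM and then at 38.7, 44.7 and 40.7 CPM.

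Redox genes gave 4 higher by DESeq2 of 24, where 6.09% of all genes were called higher. Log2 fold changes were above 0 in 12 and below 0 in 12, and the median was 0.02, which turned to -0.09 with the length offset and to -0.20 with scaling by total counts. Gpx4, the peroxidase that detoxifies lipid peroxides, was at 343, 586 and 590 CPM and then at 981, 1129 and 880 CPM. Prdx1, peroxiredoxin, was at 221, 433 and 412 CPM and then at 769, 693 and 567 CPM, and Txn1, thioredoxin, at 54.0, 79.9 and 77.8 CPM and then at 114, 119 and 94.6 CPM. Over the list, groups did not overlap in 8 genes with higher and 1 with lower values, where all genes give 18.4% and 13.9%. Gpx4, Prdx1 and Txn1 were among the 8, and in each the lowest library was replicate 1 of 12 weeks. Length-adjusted log2 fold changes were 0.76, 0.86 and 0.25.

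Macrophage genes had a median of 0.21 over 22 tested, 0.15 without the libraries numbered 1 and 0.11 with the length offset, 0.35 without replicate 3 of 16 weeks, and turned to -0.03 with scaling by total counts. By edgeR 0 passed and by DESeq2 2 were higher, C1qb and Lyz2, where 6.09% of all genes were called higher. C1qb was at 8.71, 9.62 and 8.002 CPM and then at 14.8, 15.1 and 12.2 CPM, and Lyz2 at 24.7, 37.3 and 36.8 CPM and then at 76.1, 55.9 and 44.5 CPM. The summed CPM of the list was 156, 187 and 181 at 12 weeks and 261, 227 and 205 at 16 weeks. Ifi27 was the single interferon-stimulated gene of 20 tested that DESeq2 called, where 6.09% of all genes were called higher. It was at 234, 365 and 362 CPM and then at 589, 518 and 392 CPM. Endothelial genes had a median of -0.58 over 18 tested and -0.48 with the length offset, which turned to 0.29 without replicate 1 of 12 weeks and to 0.28 without the libraries numbered 1: Plvap had 304 counts in replicate 1 of 12 weeks and 43 to 126 in the others. Immediate early genes, induced within minutes by stimulation, had a median of -0.55, -0.66 with the length offset, -0.23 without those libraries and -0.17 without replicate 1 of 12 weeks alone. Fos was at 25.6, 4.44 and 18.8 CPM and then at 4.27, 5.27 and 0.901 CPM, so its groups overlap.

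**Figure D4:**
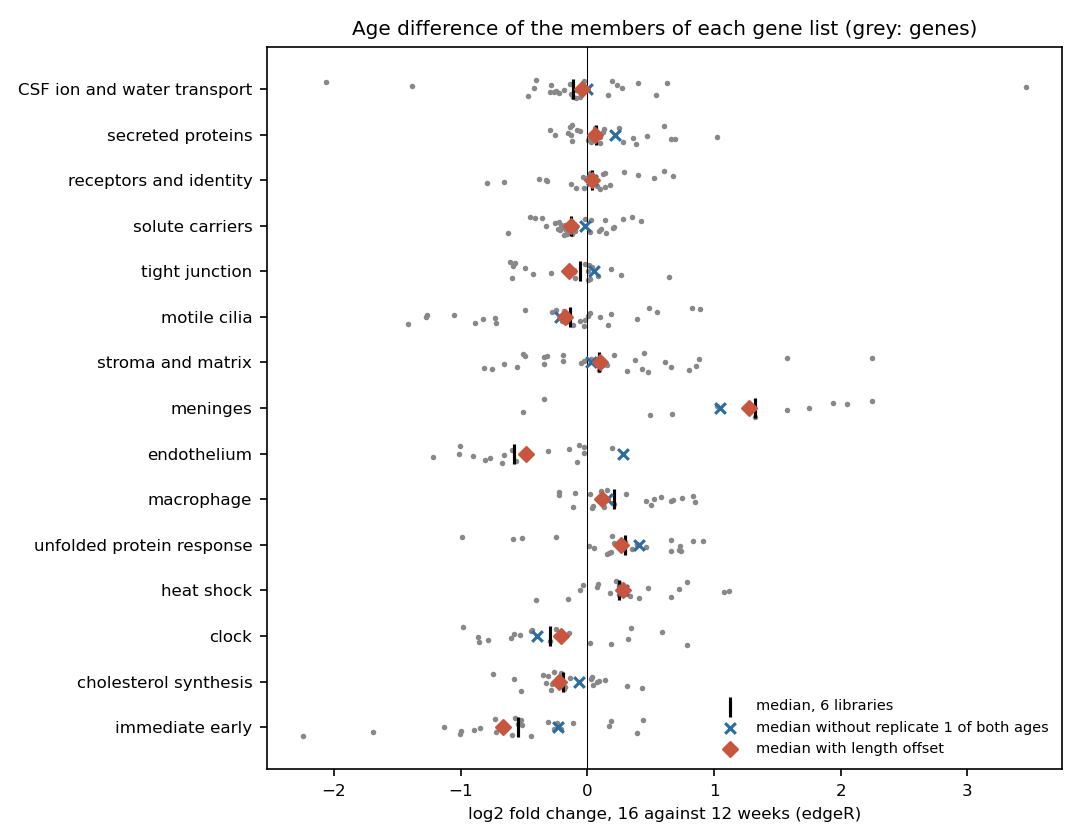
Log2 fold change, 16 against 12 weeks, of each tested gene of 15 lists (grey points), with the median of the list in the 6-library fit (black bar), without both libraries numbered 1 (blue cross) and with a length offset (red diamond). The medians of the unfolded protein, heat shock and meninges lists lie above 0 in all 3 fits. So do those of the macrophage, secreted protein, receptor and stroma lists. The clock median lies below 0 in all 3 fits, as do those of the immediate early, cilia, cholesterol, solute carrier and fluid transport lists. The tight junction median changes sign, and the endothelium median runs from -0.58 to 0.28.

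Gene families of the protein and energy machinery had higher mean shares of the level at 16 weeks, with no family past an adjusted p of 0.05. Cytosolic ribosomal proteins went from 2.08%, 2.18% and 2.36% to 3.16%, 3.25% and 2.55%, a mean of 2.21% ± 0.141 (SD, n = 3) against 2.98% ± 0.382. Groups do not overlap, and the exact two-sided permutation test gave p = 0.1, the smallest that 3 against 3 allows (adjusted p = 0.22 over 22 families). Complex I went from 0.950%, 1.10% and 1.11% to 1.47%, 1.51% and 1.28%, and cytochrome c oxidase from 0.708%, 0.755% and 0.809% to 1.06%, 1.07% and 0.908%, each with exact p = 0.1. Solute carriers held 1.41%, 1.14% and 1.15% at 12 weeks and 0.864%, 0.946% and 1.06% at 16 weeks, also with exact p = 0.1.

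Of 96 ribosomal protein genes tested, 76 had separate groups with higher values at 16 weeks and 3 with lower values, and DESeq2 called 60 higher and 0 lower. Over all genes 18.4% and 6.09% were higher in these ways, and among the 1453 genes of 1428 to 2147 bases 482 had separate groups with higher values and DESeq2 called 168 higher. Their median length was 1776 bases, and their median log2 fold change was 0.75, or 0.44 with the length offset. Rplp1, of the ribosomal stalk, was at 252, 362 and 373 CPM and then at 652, 678 and 585 CPM. Rps29 was at 170, 265 and 262 CPM and then at 524, 531 and 384 CPM. Of 45 complex I genes tested, 35 had separate groups, all higher, and DESeq2 called 29 higher. Their median length was 1495 bases, near the lower edge of the same length bin. In the bin of shorter genes below it, 666 of 1452 had separate groups with higher values and DESeq2 called 265 higher. The median log2 fold change of the complex I genes was 0.53, and 0.27 with the offset. Ndufa1 was at 161, 320 and 279 CPM and then at 509, 445 and 456 CPM. The mitochondrial genome's share was 10.4%, 16.9% and 14.01% at 12 weeks and 17.7%, 16.0% and 15.2% at 16 weeks, with exact p = 0.3 and overlapping groups. Ribosomal protein genes have many near-identical pseudogene copies, so their counts are uncertain.

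**Figure D5:**
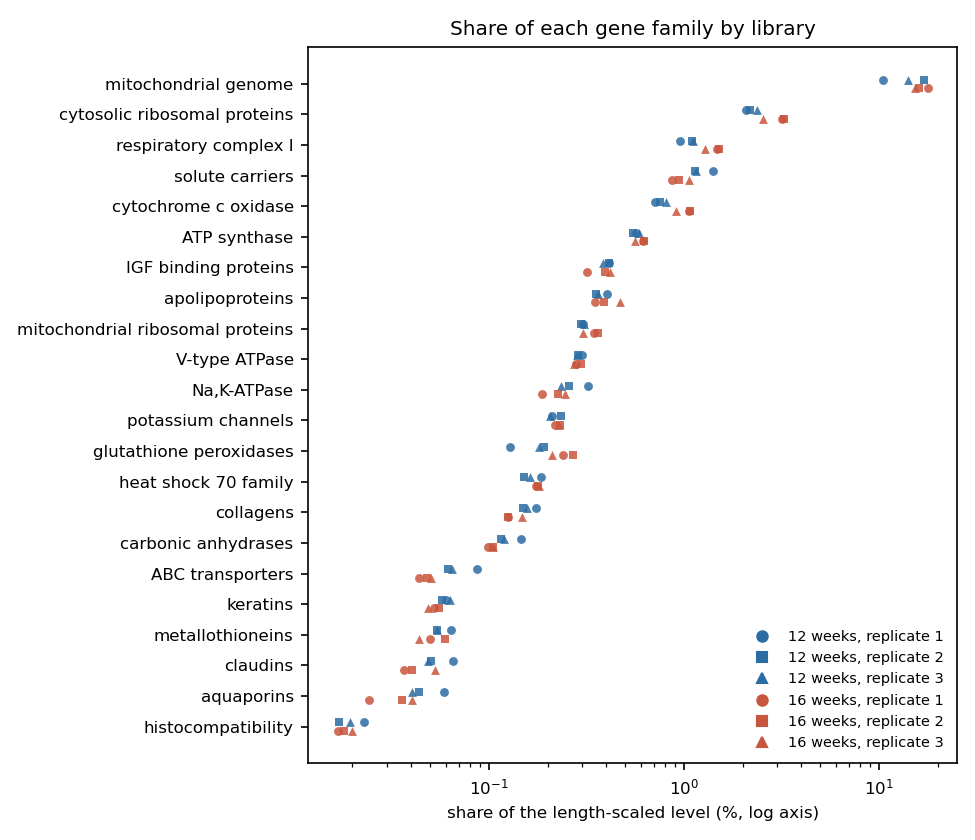
Share of the length-scaled level held by each of 22 gene families in each MRL/+ library (x axis: percent, log axis; blue is 12 weeks, red 16 weeks, marker shape is the replicate). Red points lie to the right of blue ones for ribosomal proteins, complex I, cytochrome c oxidase and glutathione peroxidases, and to the left for solute carriers, collagens, carbonic anhydrases, ABC transporters, keratins and aquaporins.

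Whether the age difference was another one in MRL/lpr was tested by the interaction of strain and age over 18 libraries. By edgeR's quasi-likelihood test 0 of 16598 genes passed (0% called), with a smallest adjusted p of 0.361, and 2286 (13.8%) had an unadjusted p under 0.05. In MRL/lpr itself 3 genes were called higher and 3 lower at 16 weeks (0.0181% each). Manf had a log2 fold change of 0.62 there, Hspa5 0.46 and Xbp1 0.65, while Naa38 had -0.31, Per1 0.09 and Nov -0.84. The differences between strains for these genes did not pass, at adjusted p = 0.593 for Manf, 0.660 for Hspa5, 0.896 for Xbp1 and 0.361 for Naa38, Per1 and Nov.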

How the data were processed

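RNA of MRL/+ and MRL/lpr choroid plexus was made into TruSeq RNA v2 libraries, which do not mark strand, per the labels' protocols. The deposited values are counts of reads per gene, with a gene length beside them. STAR 2.5.3a, featureCounts 1.26.0, DESeq2 1.16.1 and the build GRCm38 are named in the submitters' processing notes; counting settings and annotation release were not given in any source used here. Without strand, overlapping and antisense genes cannot be told apart.

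Genes passing filterByExpr were tested with edgeR 4.0.16 (TMM scaling, robust quasi-likelihood test, Benjamini-Hochberg adjustment, threshold 0.05) under R 4.3.3. DESeq2 1.42.0 and limma 3.58.1 (voom with library weights) were alternatives, with other scalings, filters, left-out libraries and a length offset. Levels are counts per kilobase scaled to 1000000. Family shares were compared by exact permutation over 20 splits. On a simulated set with known changes, each of the 3 tools made more false calls than the threshold sets, DESeq2 the most. That set held no length trend and no library with RNA of other tissues, so it cannot give the rate of false calls in these libraries. The calls of all 3 tools are to be read with caution. Promoters are RefSeq's. The total counts of a library, 11164284 to 14602253, set the precision.

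Named genes were the 25 highest nuclear genes apart from ribosomal protein genes, the 6 with the smallest p in each direction, and up to 4 by level and 4 by p in each list; further genes were picked after their values were seen. Members and lists were chosen with earlier results of these data known. Fits without the libraries numbered 1 by DESeq2 and voom, and the length offset, were added after seeing the data. Some genes that this rule names are not reported here.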

Additional observations from a re-analysis of the deposited data

How the results depend on the processing

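With edgeR, 0 genes were called under every scaling, with the stricter filter, over all 18 libraries, with the length offset and without the libraries numbered 1. Leaving out any 1 library gave 0 calls in each case, with a smallest adjusted p between 0.0653 and 0.349. Without a filter on low counts 41 were called, 24 higher and 17 lower. DESeq2 called 1289 (885 higher, 404 lower), weighted voom 1659 (1142 and 517), and DESeq2 without the libraries numbered 1 called 317 (267 and 50); the cause was not tested. Deviations of same-numbered libraries correlated at 0.0882, -0.0736 and 0.420, the last between the libraries numbered 3. Differently numbered libraries gave values of similar size. Replicate 1 of 12 weeks correlated at 0.349 with replicate 2 of 16 weeks, and replicate 3 of 12 weeks at -0.413 with that library. The numbers were not taken as pairs. A fit with the replicate block called 0, with a smallest adjusted p of 0.211.

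The log2 fold change of Enpp2 reversed to -0.054 with weighted voom, -0.093 with total counts, -0.097 without replicate 1 of 12 weeks (0.21 at most with another library left out), -0.13 without the libraries numbered 1 (also -0.13 with weighted voom and -0.15 with DESeq2). Differences in family share reversed for V-type ATPase (0.00210 percentage points scaled without mitochondrial genes, 0.0236 by CPM), for IGF binding proteins (0.0140 by CPM, 0.00941 without the libraries numbered 1) and for histocompatibility genes (0.00100 and 0.000827 likewise). The Ttr share of 31.8% became 37.7% without mitochondrial genes and 17.3% by CPM.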

Other observations

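Gonadotropin beta subunit Lhb was at 15.6 to 19.8 CPM in all 6 libraries, a level of 60.0 ± 12.7 (SD, n = 6), although Cga, the alpha subunit that pairs with it in the pituitary, had 4 counts over all 6. The pituitary factors Pou1f1 and Pitx1 and the hormone gene Fshb were listed at 0.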
